A study of Arabidopsis thaliana with 12 samples.

Results

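Sorted ground tissue cells of Arabidopsis roots in which the transcription factor BLUEJAY (BLJ) was driven by GAL4 were compared, gene by gene, with the same cells of the driver line alone. The comparison took the 3 arrays labelled as the line with UAS driving BLJ and the 3 arrays of the control line without a UAS factor, 6 of the 12 arrays in the series, and described all 22746 probe sets other than the control probe sets, 15923 of which were bright enough to be tested. Seedlings of ecotype C24 were grown on standard medium, root tips were cut at 5 days, and green fluorescent cells were sorted from them. The titles give a wild-type genetic background for every array. Every line carried J0571, an enhancer trap that expresses GAL4 and GFP in the cortex and endodermis. The BLJ line added a UAS construct driving BLJ, and the 2 other lines, with 3 arrays each, added one driving JACKDAW (JKD) or SCARECROW (SCR) to the same trap. Expression of the factor therefore depended on where J0571 is active, and the labels do not say how many independent transformants stand behind a line. The replicates are labelled as biological.

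The root ground tissue consists of cortex and endodermis, which arise by an asymmetric division of a shared daughter of the initial cell. SHORT-ROOT moves into this layer from the stele and acts there with SCARECROW, and zinc finger proteins with an INDETERMINATE domain, called BIRDs, bind both. BLJ, JKD, MAGPIE and NUTCRACKER are BIRDs, and together they maintain ground tissue identity and its patterned divisions.

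All values below are quantile-normalized intensities without a unit, and log2 differences are on log2(value + 0.703), which understates changes of dim probe sets. A probe set is called changed at a Benjamini-Hochberg adjusted p under 0.05 in limma, fitted over all 12 arrays. The deposited log2 intensities were more spread on the BLJ arrays, with an SD of 0.87 to 0.97, than on the control arrays, with 0.68 to 0.70, and correlations among the 6 arrays ran from 0.952 to 0.990. The arrays also differed in a heat shock state. The mean log2 level of the 12 measured genes of a heat shock list was 0.77, 0.88 and 1.29 on control arrays 1 to 3 and 1.21, 1.0 and 1.42 on BLJ arrays 1 to 3. Control 3, BLJ 1 and BLJ 3 were thus the high arrays, and the leading results below are given by array. Calls were termed stable where the probe set was called again whichever of the 6 arrays was left out and kept its direction on the deposited scale and after median centring.

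The gene that the construct drives was read first. The BLJ probe set (AT1G14580) gave 0.946, 0.913 and 0.911 on control arrays 1 to 3 and 0.828, 0.795 and 0.789 on BLJ arrays 1 to 3. All 3 BLJ arrays lay below all 3 control arrays, so the labelled driver line did not show a higher BLJ signal. The log2 difference was -0.11 ± 0.03 (SE, adjusted p = 0.0333), and the call was lost without control 1, any 1 of the 3 BLJ arrays or JKD 1 (adjusted p = 0.0539), which enters through the shared estimate of the spread. For other genes below, lost calls are given for the 6 compared arrays. The values were also below those of the JKD line, with a log2 difference of -0.13 (adjusted p = 0.0283), and of the SCR line, with -0.16 (adjusted p = 0.0116). These are dim values, and the position of the probe set relative to the construct is not stated, so it is not known whether they check the label. Directions below are therefore those of the arrays labelled as BLJ.

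Against the control, 290 probe sets rose, which is 1.82% of those tested, and 388 fell, which is 2.44%, or 4.26% in both directions together. Most changes were small, with a median of 0.17 among the rises and -0.16 among the falls, and 55 of the 678 exceeded 0.5 on the log2 scale. On the deposited scale, 1534 rose and 1406 fell, and after median centring 2001 rose and 549 fell. Separation by array alone was common, since 10.6% of all tested probe sets had every BLJ array above every control array and 10.4% had every one below, 21.0% in all. Among the called probe sets, 288 of the 290 rises and 385 of the 388 falls had no overlap. For a called gene, groups that stand apart therefore add little to the call. The stable calls were 69 rises, 0.433% of those tested, and 86 falls, 0.54%, of which 31 and 50 have 1 gene name. Because whole sorted populations were measured, fewer cells of a type and less RNA per cell cannot be told apart.

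**Figure D1:**
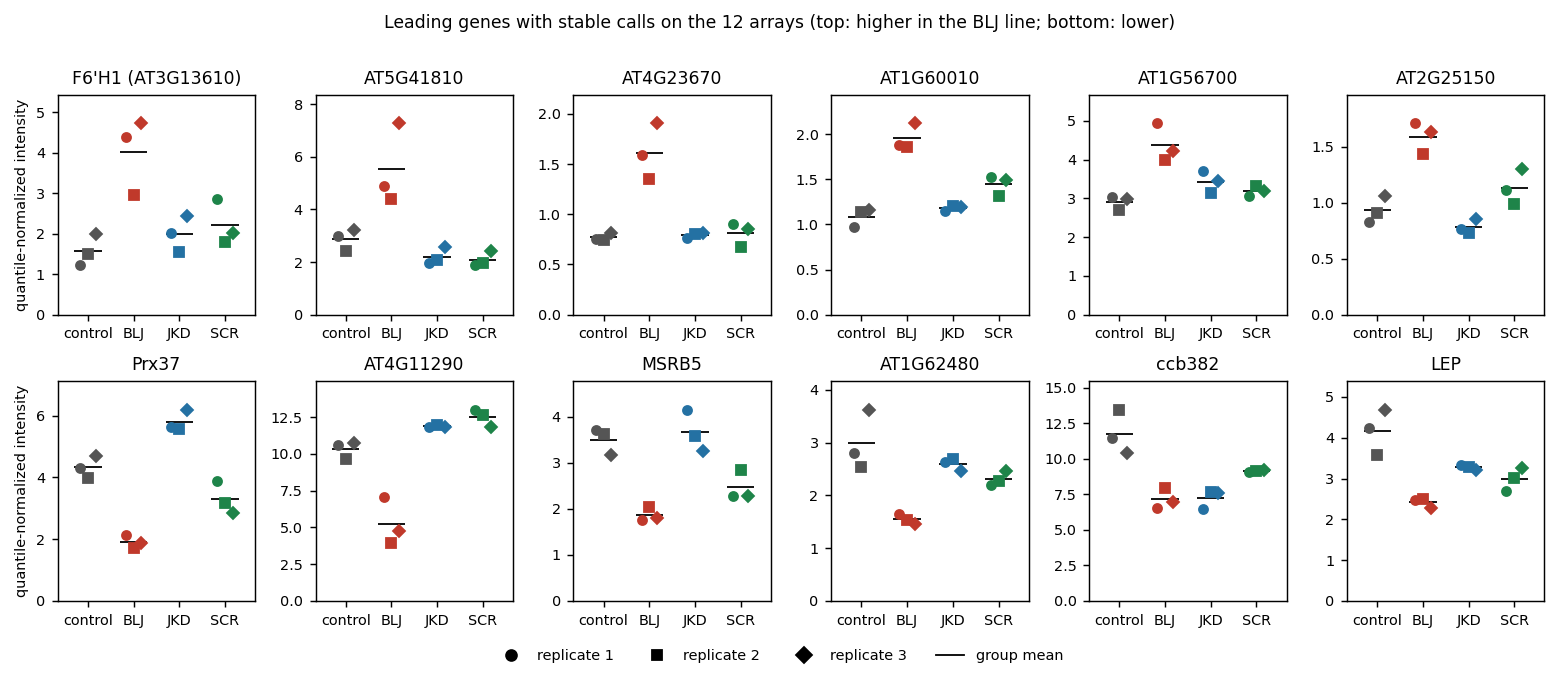
Quantile-normalized intensity (vertical axis, linear, no unit) on each of the 3 control and 3 BLJ arrays for 6 leading stable rises (top) and 6 leading stable falls (bottom); and, beside them, on the 3 arrays each of the JKD and SCR lines; symbols mark replicates and lines group means. In every panel the BLJ and control arrays do not overlap, which holds for nearly all called probe sets. For AT3G13610 the BLJ arrays lie between 2.96 and 4.72 and the control arrays between 1.22 and 1.99.

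The leading named rise was AT3G13610, which encodes feruloyl-CoA 6-hydroxylase (F6'H1), the enzyme that commits phenylpropanoids to coumarins such as scopoletin. Its values were 1.22, 1.49 and 1.99 on control arrays 1 to 3 and 4.39, 2.96 and 4.72 on BLJ arrays 1 to 3. The groups did not overlap, and within each the order of the arrays was that of their heat shock level. The mean was 1.57 ± 0.389 (SD, n = 3) in the control and 4.02 ± 0.934 in the BLJ line, a log2 difference of 1.05 ± 0.18 (SE, adjusted p = 0.00833). With the heat shock level as a term the difference was 0.78 (adjusted p = 0.00581). It was 0.83 between BLJ 2 and the mean of controls 1 and 2, the arrays with a low heat shock level, and 0.97 between the mean of BLJ 1 and 3 and control 3, those with a high one. The JKD mean was 2.0 ± 0.453, which the BLJ line exceeded by 0.80 (adjusted p = 0.0383). The SCR mean was 2.22 ± 0.555, and the difference of 0.69 was not called (adjusted p = 0.0735).

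Further stable rises belonged to phenylpropanoid side branches. AT2G25150, a spermidine hydroxycinnamoyl transferase that makes coumaroyl conjugates, read 0.830, 0.911 and 1.06 in the control and 1.71, 1.43 and 1.63 in the BLJ line. The lowest BLJ array was above the highest control array, and the log2 difference was 0.49 ± 0.07 (adjusted p = 0.00342). CYP84A4, a cytochrome P450 of arabidopyrone synthesis, read 1.22, 1.12 and 1.17 in the control and 1.84, 1.45 and 1.67 in the BLJ line. The groups were again apart, with a difference of 0.33 ± 0.06 (adjusted p = 0.00867). AT1G22900, which encodes a dirigent-like protein of the kind that guides lignan and lignin coupling, read 0.789, 0.822 and 0.752 against 1.10, 1.05 and 1.26 and rose by 0.30 ± 0.04 (adjusted p = 0.00155). AT2G25150 and CYP84A4 were the 2 rises, with no fall, among 5 tested genes of the phenylpropanoid and lignin list, whose median was 0.12 beside 0.00 over all tested probe sets. The median was -0.12 between the arrays of low heat shock level and 0.25 between those of high level, and 0.46 on the deposited scale. The uncalled members were HCT at -0.00, CCR2 at 0.12 and ALDH2C4 at -0.22. The coumarin and iron response list held AT3G13610 as its 1 rise among 11 tested members, with no fall and a median of 0.02.

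Other leading rises came from unrelated families. AT4G23670, a major latex protein-like gene, read 0.755, 0.745 and 0.814 in the control and 1.59, 1.35 and 1.90 in the BLJ line. Each BLJ array was above each control array, for a log2 difference of 0.64 ± 0.07 (adjusted p = 0.000921). It was the 1 rise among 5 tested genes of that family, with no fall. AT5G41810, of unknown function, read 2.97, 2.41 and 3.21 in the control and 4.90, 4.41 and 7.26 in the BLJ line. BLJ 3 stood highest and the groups did not overlap, with a difference of 0.78 ± 0.15 (adjusted p = 0.0132). AT1G60010, also of unknown function, read 0.969, 1.13 and 1.16 against 1.88, 1.86 and 2.12 and rose by 0.57 ± 0.06 (adjusted p = 0.000704). AT1G56700, annotated as a pyroglutamyl peptidase, read 3.03, 2.69 and 2.98 against 4.93, 3.98 and 4.23. All BLJ arrays exceeded all control arrays, by 0.49 ± 0.09 (adjusted p = 0.0111).

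Among smaller stable rises were genes of the wall and the membrane. XTH32, a xyloglucan endotransglucosylase that remodels the wall, read 0.716, 0.764 and 0.769 in the control and 1.19, 0.980 and 1.13 in the BLJ line, a difference of 0.31 ± 0.04 (adjusted p = 0.00183). It was the 1 rise among 35 tested expansin, XTH and cellulase genes, none of which fell, and the median of that list was -0.01. AT3G26590, a MATE-type efflux carrier, rose by 0.25 (adjusted p = 0.00367), and AT1G07650, a leucine-rich repeat receptor kinase, by 0.27 (adjusted p = 0.00452), both without overlap. AT1G67480, an F-box protein with kelch repeats, had a mean of 1.62 in the control and 2.12 in the BLJ line, a difference of 0.28 (adjusted p = 0.0129). The SCR mean was 2.14 and the JKD mean 1.56. AT5G57785, of unknown function, had means of 1.18 and 1.64, rose by 0.32 (adjusted p = 0.00627), beside a JKD mean of 1.70 and an SCR mean of 1.04.

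The largest 2 stable falls with a gene name were class III peroxidases, secreted haem enzymes that use hydrogen peroxide to couple phenolics and lignin in the wall or to loosen it. Prx37 (AT4G08770) read 4.29, 4.0 and 4.71 on control arrays 1 to 3 and 2.13, 1.72 and 1.88 on BLJ arrays 1 to 3. Every BLJ array was below every control array. The mean was 4.33 ± 0.357 (SD, n = 3) in the control and 1.91 ± 0.204 in the BLJ line, a log2 difference of -0.95 ± 0.10 (SE, adjusted p = 0.000921). On the deposited scale, where the BLJ arrays are more spread, the difference was -0.51.

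The peroxidase AT4G11290 read 10.6, 9.63 and 10.8 in the control and 7.05, 3.97 and 4.76 in the BLJ line. BLJ 1 was the highest of the 3 and still below all control arrays, and the log2 difference was -0.92 ± 0.15 (adjusted p = 0.00733), or -0.39 on the deposited scale. A stable fall was also found for the peroxidase AT2G39040, with 1.83, 2.33 and 1.73 against 1.17, 1.24 and 1.23, a difference of -0.47 (adjusted p = 0.00840), or -0.26 on the deposited scale. Over the family, 6 of 37 tested members fell and 2 rose, with a median of -0.02. The other 3 falls, at AT4G16270 with -0.36, AT4G36430 with -0.41 and AT5G24070 with -0.27, were not stable. The rises were AT4G30170, which read 17.2, 16.2 and 14.4 in the control and 30.4, 22.2 and 28.8 in the BLJ line, and AT5G15180, which read 1.25, 1.53 and 1.93 against 3.79, 2.47 and 3.33. The former rose by 0.73 (adjusted p = 0.0108, lost without BLJ 3) and the latter by 0.78 (adjusted p = 0.0230, lost without control 1, BLJ 1 or BLJ 3). Without BLJ 3 the family gave no rise and 3 falls. The split in direction also depended on scaling: it was 2 rises and 5 falls on the deposited scale and 3 rises and 2 falls after median centring.

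Further stable falls involved redox, signalling and transcription genes. MSRB5, a methionine sulphoxide reductase that repairs oxidized proteins, read 3.72, 3.62 and 3.17 in the control and 1.77, 2.04 and 1.80 in the BLJ line. The groups did not overlap, and the difference was -0.71 ± 0.10 (adjusted p = 0.00367). AT1G62480, annotated as a vacuolar calcium-binding protein, read 2.81, 2.54 and 3.62 against 1.65, 1.54 and 1.45 and fell by 0.70 on the log2 scale (adjusted p = 0.00288). LEP, an ERF-type transcription factor first known from leaf petiole development, read 4.24, 3.57 and 4.69 against 2.47, 2.50 and 2.28. Its BLJ arrays were nearly level and all below the control, with a difference of -0.64 ± 0.09 (adjusted p = 0.00452). LEP was the 1 member of 24 tested ERF genes that fell, and none rose. AT4G24060, a Dof-type transcription factor, fell by 0.29 (adjusted p = 0.00849) and AT5G41060, a DHHC-type palmitoyltransferase, by 0.24 (adjusted p = 0.0107). AT3G24240, a leucine-rich repeat receptor kinase that perceives root meristem growth factor peptides, had means of 1.44 ± 0.0296 in the control and 1.07 ± 0.0688 in the BLJ line, a difference of -0.28 (adjusted p = 0.00733).

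These falls were smaller on the deposited scale, at -0.33 for MSRB5, -0.38 for AT1G62480, -0.19 for LEP, -0.19 for AT4G24060 and -0.16 for both AT5G41060 and AT3G24240. The named rises were larger there in several cases, with 0.91 for AT1G56700, 1.19 for AT5G41810, 0.52 for AT1G67480 and 0.44 for AT5G57785.

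UGT78D2, which glucosylates flavonols and anthocyanidins, read 3.14, 2.64 and 2.15 in the control and 1.60, 1.42 and 1.62 in the BLJ line. All BLJ arrays were lower, and the difference was -0.56 ± 0.11 (adjusted p = 0.0119), or -0.25 on the deposited scale. It was -0.76 between the arrays of low heat shock level and -0.30 between those of high level. UGT78D2 was the 1 fall, with no rise, among 8 tested flavonoid genes. In the larger list of family 1 glycosyltransferases, which attach sugars to small molecules, 5 of 42 tested members fell and 1 rose, with a median of -0.03. In the glutathione transferase list 2 of 11 fell and none rose, namely GSTU27 with -0.53 (adjusted p = 0.0113) and GSTU25 with -0.40 (adjusted p = 0.0442), but their sign turned with the scaling. GSTU25 was at 0.16 on the deposited scale and 0.21 after median centring, GSTU27 was at 0.028 after median centring, and the call of GSTU25 was lost with any 1 of the 6 arrays left out. AT2G44300, a GPI-anchored lipid transfer protein, fell stably by 0.52 (adjusted p = 0.00840), and its list of 24 gave 3 falls and 2 rises.

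The lists of cytochromes P450, pectin enzymes, photosynthesis genes and auxin response genes gave a few calls, none of them stable apart from CYP84A4. Besides CYP84A4, the cytochromes P450 CYP71B6, with 0.28 (adjusted p = 0.0215), and CYP71B34, with 0.15 (adjusted p = 0.0230), rose, so that 3 of 9 tested members rose and none fell, at a median of 0.01. The calls of both CYP71B genes were lost without control 1, BLJ 1 or BLJ 3. PMEPCRF, a pectin methylesterase that acts on wall pectin, read 1.58, 1.48 and 1.84 in the control and 2.74, 1.92 and 2.91 in the BLJ line. Its rise of 0.45 (adjusted p = 0.0412, lost without control 1, control 2, BLJ 1 or BLJ 3) was the 1 call among 21 pectin enzymes. RCA, which activates Rubisco, rose by 0.21 (adjusted p = 0.0303) and ATPC1, a subunit of the chloroplast ATP synthase, by 0.15 (adjusted p = 0.0262), the 2 calls among 8 nuclear photosynthesis genes. WES1, which conjugates auxin to amino acids, read 1.43, 1.49 and 1.53 against 1.16, 1.19 and 1.23. The groups were apart, and the fall of 0.21 (adjusted p = 0.0234, lost without BLJ 1 or BLJ 3) was the 1 call among 9 auxin response genes. The fall was close to 0 after median centring, at -0.02.

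Some genes of the mitochondrial and plastid genomes fell. The leading stable one was ccb382, which encodes a subunit for cytochrome c maturation in mitochondria. Its values were 11.4, 13.5 and 10.4 in the control and 6.56, 7.92 and 6.96 in the BLJ line. The groups were apart, with a difference of -0.66 ± 0.12 (adjusted p = 0.00999), but on the deposited scale it was -0.10. The mean of the JKD line was 7.26, and the BLJ line differed from it by -0.02 (adjusted p = 0.978). The list of mitochondrial genes had 4 falls among 16 tested and no rise, with a median of -0.10. That median was -0.01 between the arrays of low heat shock level and -0.16 between those of high level. In the plastid genome list 5 of 69 fell, none rose and 59 were below 0, with a median of -0.09, which turned to 0.03 on the deposited scale and 0.08 after median centring. It was 0.04 between the arrays of low heat shock level and -0.18 between those of high level, so its sign also differed with that state. The plastid falls included rbcL, the large subunit of Rubisco, with -0.29 (adjusted p = 0.0188), and atpI of the ATP synthase, with -0.13 (adjusted p = 0.00733). The last was stable.

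Nuclear genes for ribosomal proteins of plastids and mitochondria rose in part. All 9 tested members had positive differences, 7 had no overlap between groups, and 4 passed the test, with a median of 0.10. These were AT5G24490 with 0.15 (adjusted p = 0.00521), AT1G64510 with 0.11 (adjusted p = 0.0114), AT3G54210 with 0.22 (adjusted p = 0.0163) and AT4G01310 with 0.10 (adjusted p = 0.0447). The first and second of these were stable, while AT4G01310 lost its call with any 1 of the 6 arrays left out. By array, the mean log2 level of the list was 0.64 to 0.65 in the control and 0.72 to 0.74 in the BLJ line. It was 0.69 to 0.71 for JKD and 0.68 to 0.73 for SCR. AT5G24490 and AT1G64510 were dim, with means of 0.737 and 0.750 in the control and 0.897 and 0.866 in the BLJ line. For neither was the BLJ line called different from JKD (adjusted p = 0.129 and 0.245) or SCR (adjusted p = 0.519 and 0.281). An unadjusted p under 0.05 in limma was found for 3044 of all 15923 tested probe sets, in either direction. Genes for cytosolic ribosomal proteins gave no call among 113 tested, and none at such an unadjusted p, with a median of 0.03. Their list mean was 2.55, 2.49 and 2.02 on control arrays 1 to 3 and 2.27, 2.72 and 2.19 on BLJ arrays 1 to 3, lowest in each group on an array with a high heat shock level. On the deposited scale the median was 0.52 with 14 rises, and without control 3 or without BLJ 2 it was -0.13, and between arrays of low and of high heat shock level it was 0.20 and 0.21.

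**Figure D2:**
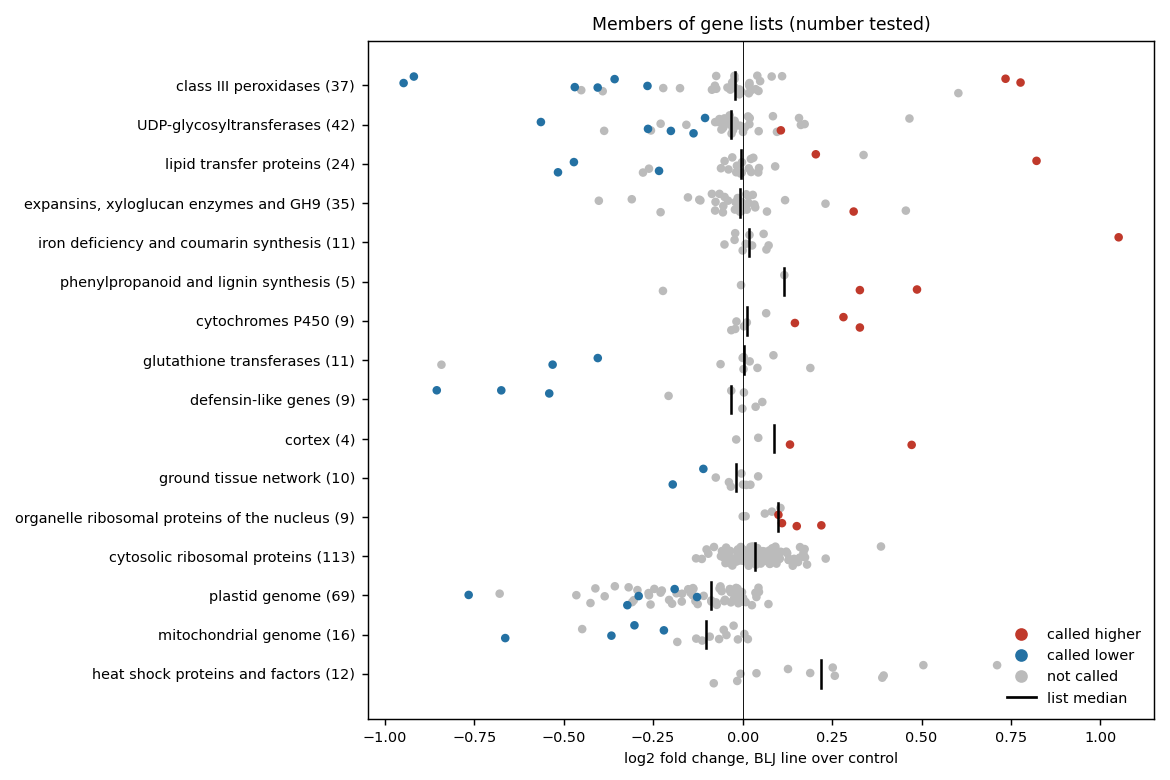
Log2 difference of the BLJ line from the control (horizontal axis) for tested members of 16 gene lists (rows); points are genes, coloured by call, and bars are list medians. The peroxidases spread from -0.95 to 0.78, while the organelle ribosomal proteins of the nucleus all lie above 0 with a median of 0.10.

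Of 10 tested genes of the ground tissue network, 2 fell and none rose, with a median of -0.02, and 4 had every BLJ array below every control array. The mean log2 level of the list was 0.70, 0.68 and 0.70 on control arrays 1 to 3 and 0.67, 0.64 and 0.65 on BLJ arrays 1 to 3. The BLJ arrays were thus all lower than the control arrays by this mean, by a small margin. The range was 0.69 to 0.70 for JKD and 0.71 to 0.72 for SCR. Besides BLJ itself, the fall was that of TRI, a tropinone reductase-like gene, with -0.20 ± 0.04 (adjusted p = 0.0160, lost without control 1 or BLJ 3). No member was called without control 1, without BLJ 3 or after median centring, and 5 fell on the deposited scale. JKD, the partner BIRD of SHORT-ROOT and SCARECROW, had a difference of -0.08 (adjusted p = 0.104), and AT3G45260 (BALDIBIS), another BIRD, of -0.03 (adjusted p = 0.331). The GRAS protein gene AT5G41920 (SCL23), a close relative of SCARECROW, was at -0.00. The gibberellin receptors GID1A, GID1B and GID1C were at 0.02, 0.04 and -0.04, none of them called.

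Cortex markers were higher in part. AT1G09750, an aspartyl protease expressed in cortex, read 1.60, 1.52 and 0.995 in the control and 2.33, 2.14 and 1.99 in the BLJ line. The control array with the high heat shock level was the lowest and the groups did not overlap, with a difference of 0.47 ± 0.10 (adjusted p = 0.0163, lost without BLJ 1). AT3G21670, a nitrate transporter, rose by 0.13 (adjusted p = 0.0470, lost without control 1, control 2, BLJ 1 or BLJ 3). The other 2 tested markers, AT1G62510 and AT1G62500, were at 0.04 and -0.02, and neither was called. A marker counted as measured where a probe set was named for that gene alone. Summed over the 4 measured of 5 markers, the level was 3.51 to 4.10 in the control and 4.75 to 4.98 in the BLJ line. It was 4.12 to 4.32 for JKD and 3.99 to 4.22 for SCR. AT1G09750 weighed most in the sum, with means of 1.37 in the control and 2.15 in the BLJ line. These were 0.931 and 1.09 for AT3G21670, 0.809 and 0.856 for AT1G62510, and 0.766 and 0.748 for AT1G62500.

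Of the endodermis markers, 2 of 10 were measured, and neither was called in limma, while 1 was lower at an unadjusted p under 0.05. Such a p was reached by 3044 of all 15923 tested probe sets, in either direction. AT1G61590, a receptor-like kinase, had a difference of -0.34 (adjusted p = 0.209) and GSO1, a receptor kinase for Casparian strip integrity, of -0.17 (adjusted p = 0.715). Their summed level was 9.04 to 11.8 in the control and 6.83 to 11.4 in the BLJ line, and their median of -0.26 turned to 0.25 on the deposited scale. For other cell types, the summed marker level was 1.61 to 2.18 against 1.75 to 1.84 for root hairs with 2 of 7 measured, and 0.932 to 1.42 against 0.905 to 1.07 for root cap with 1 of 5. Phloem, with OPS as the 1 of 5 markers measured, was at 0.781 to 0.916 against 0.702 to 0.752 and OPS fell by 0.12 (adjusted p = 0.0371). None of the 7 xylem and 3 stele markers had a probe set named for that gene alone. This does not show that the array lacks them, as 8730 probe sets have no gene name here. The part of other cell types in the differences above was not tested.

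Heat shock proteins themselves, the chaperones that bind unfolded proteins, gave no call in limma among 12 tested members, with a median of 0.22. At an unadjusted p under 0.05, 3 were higher, beside 3044 of all 15923 tested probe sets in either direction. AT1G54050, a small heat shock protein, read 0.828, 1.09 and 2.48 in the control and 2.64, 2.02 and 3.50 in the BLJ line, a difference of 0.71 (adjusted p = 0.176). The arrays overlapped, as control 3 exceeded BLJ 2. With the mean level of the list as a term, its own genes included, 233 probe sets rose, 1.46% of those tested, and 357 fell, 2.24%. Of the 290 rises 157 were called again, and of the 388 falls 235, and all 69 and 86 stable ones were among them. All 678 called probe sets had the same sign when BLJ 2 was set against controls 1 and 2 and when BLJ 1 and 3 were set against control 3, a direction that the choice of called probe sets largely fixes. Without the 3 high arrays, 13 of the 69 and 9 of the 86 were still called, in a fit that left 1 BLJ array and assumed that it varies like the other groups.

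**Figure D3:**
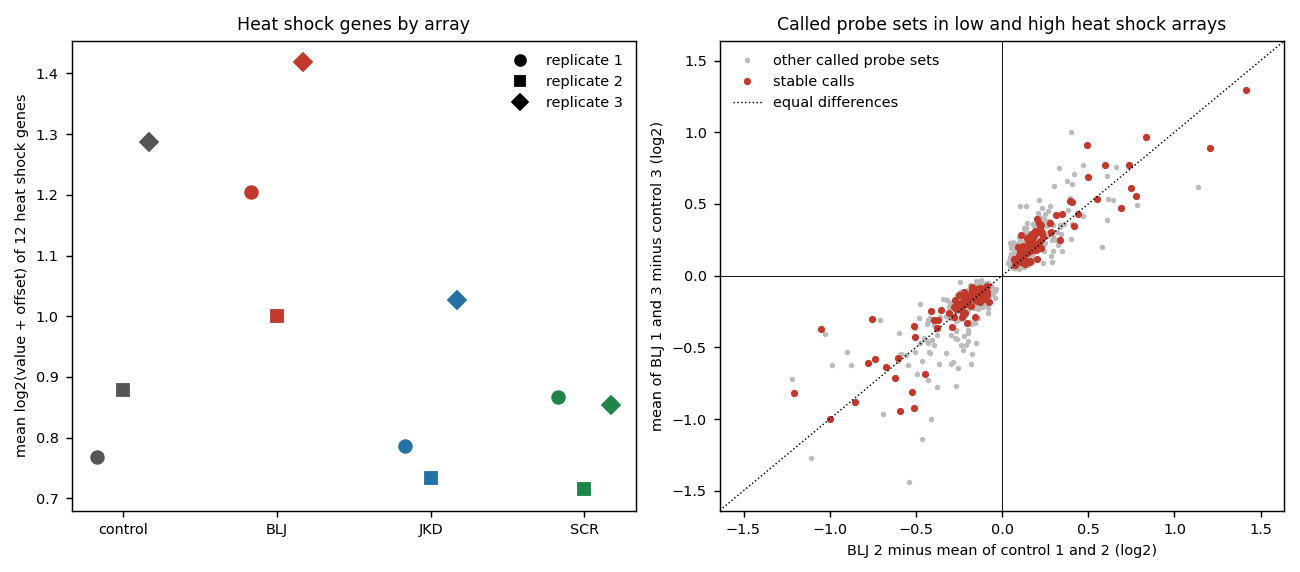
Left, mean log2 level of 12 heat shock genes on each of the 12 arrays (vertical axis) by line. Right, for the 678 called probe sets, the log2 difference among the arrays with low heat shock level (horizontal axis) against that among the arrays with high level (vertical axis), with stable calls in red; all have the same sign on both axes.

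Several large changes depended on single arrays. Among rises, AT2G16005, which encodes a protein with a lipid-recognition domain, read 1.03, 1.69 and 2.12 in the control and 2.40, 3.79 and 5.33 in the BLJ line. Its difference of 0.95 (adjusted p = 0.0275) was lost without control 1, BLJ 2 or BLJ 3. The lipid transfer protein gene AT4G22610 read 1.97, 1.55 and 3.29 against 4.13, 3.53 and 5.78 and lost its call at 0.82 (adjusted p = 0.0378) without control 1, control 2, BLJ 1 or BLJ 3. Among falls, the plant defensin gene LCR68 read 4.69, 4.59 and 8.93 in the control and 3.04, 2.97 and 2.68 in the BLJ line. Control 3 set it apart, and the call at -0.85 (adjusted p = 0.0450) was lost without any 1 of control 1, control 3 or the BLJ arrays. Defensins gave 3 falls among 9 tested and no rise, and none was called without BLJ 1 or without BLJ 3, on the deposited scale or after median centring.

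The plastid gene accD, for a subunit of acetyl-CoA carboxylase, read 5.15, 5.68 and 5.93 against 2.99, 3.89 and 2.27. The groups were apart, but its call at -0.77 (adjusted p = 0.0160) was lost without BLJ 1 or BLJ 3. AT2G14900, a GASA-type gene of the gibberellin-regulated family, read 14.3, 11.5 and 13.6 against 9.41, 6.13 and 7.85 and lost its call at -0.72 (adjusted p = 0.0159) without control 1 or BLJ 3. The chitinase gene AT2G43590 was at -0.77 (adjusted p = 0.0169) and lost its call without BLJ 1 or BLJ 3.

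The counts moved in the same way. With all arrays 290 rose and 388 fell, and leaving out BLJ 3 gave 78 and 106, leaving out BLJ 1 gave 101 and 155, and leaving out control 1 gave 129 and 224. In a fit of the 6 arrays alone, which estimates the spread from fewer arrays, 17 rose and 16 fell, and 15 and 11 of these were among the stable calls.

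**Figure D4:**
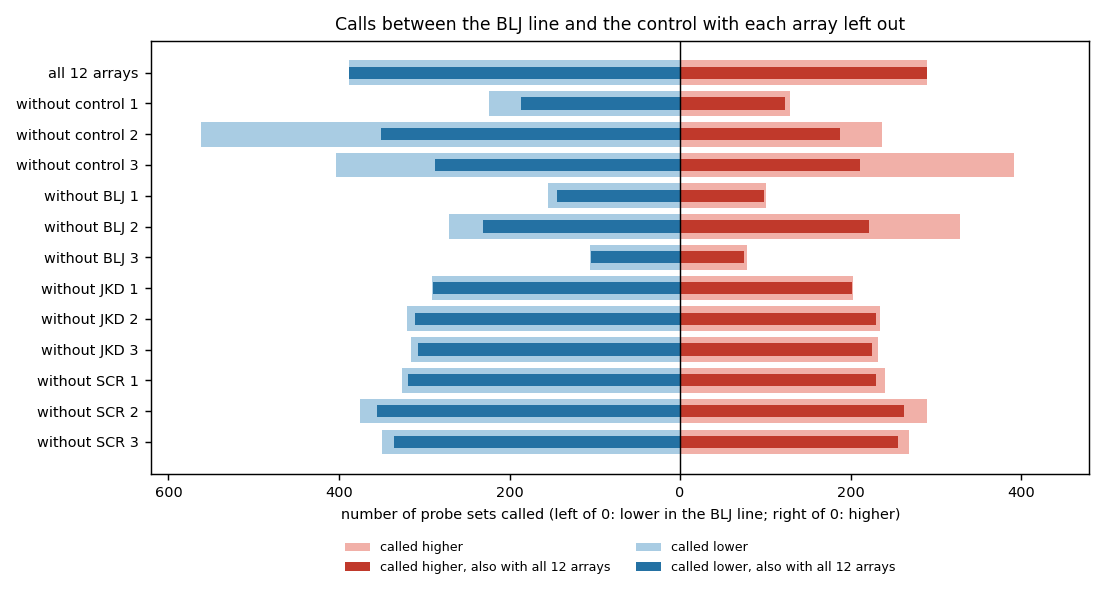
Number of probe sets called higher and lower in the BLJ line than in the control (bars, from 0) with each of the 12 arrays left out in turn; the dark part of a bar was also called with all 12 arrays. Without BLJ 3, 78 were higher and 106 lower.

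The other driven lines show which changes also separated BLJ from JKD and SCR. Against the JKD line 162 probe sets were higher, 1.02% of those tested, and 111 lower, 0.697%; against the SCR line 155 were higher, 0.973%, and 92 lower, 0.578%. Of the stable rises 33 of 69 were called against both lines, 12 of them with 1 gene name, and of the stable falls 9 of 86, 5 of them with 1 gene name. These 3 comparisons share the BLJ arrays, on which the stable probe sets were also chosen, so both tallies partly follow from that choice. The comparisons were read side by side only. With any 1 of the 12 arrays left out in turn, 15 of the 33 and 1 of the 9 kept both calls every time. Without BLJ 3, 16 and 1 kept both, and without SCR 2, 18 and 2.

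Among the genes that kept both calls was AT5G41810, with a mean of 5.52 ± 1.53 for BLJ, 2.20 ± 0.318 for JKD and 2.09 ± 0.283 for SCR. Its log2 difference was 1.08 from JKD (adjusted p = 0.00312) and 1.14 from SCR (adjusted p = 0.00335). AT4G23670 had 1.61 ± 0.278, 0.795 ± 0.0252 and 0.809 ± 0.120 and differed by 0.62 (adjusted p = 0.00164) and 0.61 (adjusted p = 0.00235). The dirigent-like gene AT1G22900 differed by 0.23 (adjusted p = 0.00726) and 0.32 (adjusted p = 0.00219). The fall that kept both calls was the peroxidase AT4G11290, with 5.26 ± 1.60 for BLJ, 11.9 ± 0.0517 for JKD and 12.5 ± 0.588 for SCR, differences of -1.11 (adjusted p = 0.00296) and -1.18 (adjusted p = 0.00296).

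Other leading genes stood apart from 1 line more than from the other. Prx37 had a JKD mean of 5.81 ± 0.337 and an SCR mean of 3.30 ± 0.524, so that BLJ differed by -1.32 (adjusted p = 9.64e-05) and -0.61 (adjusted p = 0.0139). The second of these calls was lost without BLJ 3, SCR 1 or SCR 2. UGT78D2 had a mean of 1.55 with BLJ and 1.69 with SCR, a difference of -0.08 (adjusted p = 0.744), but 3.37 with JKD, with an adjusted p of 0.00238. MSRB5 was lower than in the JKD line by 0.76 (adjusted p = 0.00248), and its difference of -0.30 from the SCR line was not called (adjusted p = 0.158). LEP had a BLJ mean of 2.42, a JKD mean of 3.27 and an SCR mean of 2.98, beside 4.17 in the control, and the BLJ line was not called different from JKD (-0.35, adjusted p = 0.0908) or SCR (-0.24, adjusted p = 0.228). The peroxidase AT2G39040 had means of 1.21 for BLJ, 1.32 for JKD and 1.18 for SCR, and neither difference was called (adjusted p = 0.820 and 0.906). AT1G56700 had means of 4.38 for BLJ, 3.43 for JKD and 3.18 for SCR, beside 2.90 in the control. Neither of its line differences was called (adjusted p = 0.152 and 0.0535). CYP84A4 was called higher than in JKD (adjusted p = 0.0298) but not SCR (adjusted p = 0.154). XTH32 was called higher than in SCR (adjusted p = 0.00335) but not JKD (adjusted p = 0.089).

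**Figure D5:**
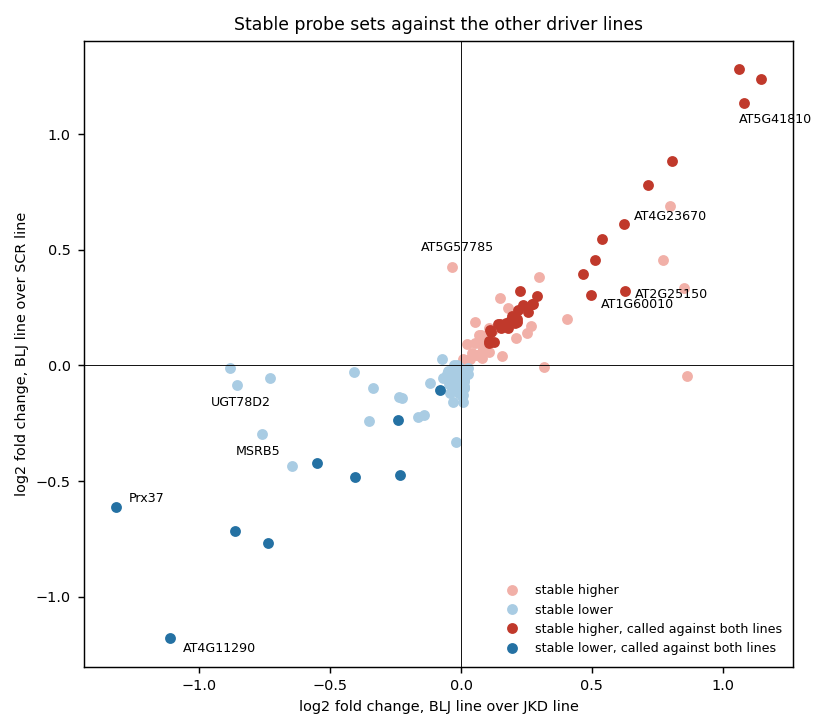
Log2 difference of the BLJ line from the JKD line (horizontal axis) and from the SCR line (vertical axis) for the 155 stable probe sets, coloured by direction against the control and darker where called against both lines. AT5G41810 lies at 1.08 and 1.14, and AT4G11290 at -1.11 and -1.18.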

How the data were processed

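RNA of sorted cells was hybridized to single-colour Affymetrix ATH1 arrays. The deposited table holds 1 linear intensity per probe set and array, made with MAS5 per the submitters' processing notes. The sources used here do not give its scaling or which arrays had 1 or 2 labelling cycles. The values ran from 0.513 to 44.2 with 66.1% under 1, and the array medians were 0.855 to 0.866 in the control and 0.794 to 0.817 in the BLJ line.

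After removal of 55 control probe sets the values were quantile-normalized, an offset at their 20th percentile was added, and the dimmest 30% of probe sets were left out. limma 3.58.1 in R 4.3.3 was fitted with a mean per group over 12 arrays, with trend and robust moderation and Benjamini-Hochberg adjustment; every adjusted p is from it. The script was tested on simulated data. Tables were made with python 3.11.15. The number of arrays limits precision.

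Probe sets were named from the platform annotation through a RefSeq table; 13513 have 1 gene, 503 several and 8730 none here. The members and lists were chosen with earlier results of these data known. Named genes were the network and cortex members, up to 15 stable genes with the largest rise and 15 with the largest fall, up to 5 array-dependent genes per direction, up to 3 called members per list and direction, or up to 2 uncalled ones, and up to 5 stable genes per direction called against both other lines. Groups and replicate numbers came from the titles. The titles do not say whether arrays of the same number were handled together, and the main fit did not pair them. Deviations of same-numbered BLJ and control arrays correlated at -0.13, 0.62 and 0.52, so a partial pairing by number remains possible. Alternatives covered scaling, floor, filter, moderation, weights, a replicate block, the heat shock term and left-out arrays.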

Additional observations from a re-analysis of the deposited data

How the results depend on the processing

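Rises, falls, calls against JKD and calls against SCR numbered 290, 388, 273 and 247. Counts that moved by over 1.5 times were 1534 rises and 1406 falls on the deposited scale, 2001 rises after median centring, 26, 21, 97 and 44 with a floor of 1, 174 rises and 191 falls with a stricter filter on dim probe sets, 158, 214 and, against SCR, 144 without trend and robust options, 483 rises, 1378 and 1224 line calls with array weights, 124 and 26 line calls with the heat shock term, 17 rises and 16 falls with the compared groups alone, and 21, 17, 105 and 62 without the 3 high heat shock arrays. With the replicate block, 364 rose, 440 fell, and 529 and 639 were called against JKD and SCR; 2 of 3 arrays correlated best with their own number. With 1 array left out, rises ran from 78 to 391, falls from 106 to 562, calls against JKD from 78 (without JKD 1) to 472 (without control 3) and against SCR from 35 (without BLJ 3) to 586 (without control 3).

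The BLJ difference of -0.11 ran from -0.12 to -0.10 with 1 array left out and lost its call at -0.084 after median centring (adjusted p = 0.0902), at -0.11 with the heat shock term (0.0626), at -0.10 with the compared groups alone (0.101) and at -0.13 without the 3 high arrays (0.277). With the replicate block it stayed called (adjusted p = 0.0364). On the deposited scale 281 of the 290 rises and 376 of the 388 falls kept their direction, and after median centring all 290 and 371 of 388 did. Among named genes the direction reversed for GSTU25, at 0.16 on the deposited scale and 0.21 after median centring, and GSTU27, at 0.028 after median centring. The cause was not tested. The floor of 1 gave no value where both groups lay under it. Dim signal limits small differences: 172 of the 290 rises and 272 of the 388 falls had a mean intensity under 1, beside 8117 of all 15923 tested.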

Other observations

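Some further values were picked after they had been seen, outside the rule for named genes. MSRB3, a methionine sulphoxide reductase of the endoplasmic reticulum, rose by 0.18 on the log2 scale (limma, adjusted p = 0.00849), from a mean of 0.960 ± 0.00802 (SD, n = 3) in the control to 1.18 ± 0.0387 in the BLJ line, while MSRB5 fell. SWEET1, a glucose carrier, rose by 0.14 (adjusted p = 0.0111), and AT5G39080, an acyltransferase of the HXXXD type, rose by 0.16 (adjusted p = 0.000704). All 3 BLJ arrays exceeded all 3 control arrays for each of these rises.

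The stable probe set with the largest rise has no gene name here. It read 2.08, 2.03 and 3.30 on control arrays 1 to 3 and 8.78, 6.64 and 9.51 on BLJ arrays 1 to 3, a log2 difference of 1.51 (adjusted p = 0.000704). Its difference was 1.06 from the JKD line and 1.28 from the SCR line.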
